A study of Homo sapiens with 12 samples.

Results

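Transcripts of 10 amino acid transporters of the plasma membrane were followed in mantle cell lymphoma (MCL) cell lines treated with ironomycin, ibrutinib or both drugs. The members, SLC7A11, SLC7A5, SLC3A2, SLC7A1, SLC7A6, SLC1A4, SLC1A5, SLC38A1, SLC38A2 and SLC43A1, were taken as a named list, with no threshold on their values, and all 10 were found by symbol among the 63677 genes counted. The list was chosen with earlier results of these data known. The RNA-seq series holds 12 libraries: the established lines JEKO1, JVM2 and MAVER1, each left untreated as a control or kept for 48 h in ironomycin, in ibrutinib or in the combination. Ironomycin is derived from salinomycin and traps iron within lysosomes, whereas ibrutinib inhibits Bruton's tyrosine kinase (BTK), a kinase of B-cell receptor signaling. JEKO1 received 50 nM ironomycin and 0.5 μM ibrutinib, JVM2 250 nM and 1.5 μM, and MAVER1 250 nM and 6.25 μM, alone or together. Each line gave 1 library per treatment, so a treatment has the 3 lines as its replicates (n = 3), and line and dose cannot be told apart. JEKO1 and MAVER1 were grown in 20% serum and JVM2 in 10%. The p-values below measure the spread between these libraries, and in bulk RNA fewer cells of a type and less RNA per cell cannot be told apart.

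Amino acid transporters of the solute carrier (SLC) families carry amino acids across the plasma membrane as uniporters, as exchangers or together with sodium. SLC3A2 encodes the heavy chain CD98, which brings light chains of the SLC7 family to the cell surface: with SLC7A11 it forms the cystine/glutamate exchanger that feeds glutathione synthesis, with SLC7A5 the exchanger of leucine and other large neutral amino acids, and with SLC7A6 an exchanger of cationic for neutral amino acids. SLC7A1 carries arginine and lysine, SLC1A4 and SLC1A5 exchange small neutral amino acids, the latter including glutamine, SLC38A1 and SLC38A2 take up glutamine and other neutral amino acids with sodium, and SLC43A1 is a uniporter of large neutral amino acids. Several of these genes are known targets of ATF4, the transcription factor of the amino acid and endoplasmic reticulum stress responses, and SLC7A11 is also a target of NRF2. In lymphoid cells, transporters of this kind rise when the cells grow and divide.

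The libraries held 35448523 to 38630809 counted reads (median 38212833), of which 0.155% to 0.356% fell on the 10 transporters. Depth differed little, and the thinnest member, SLC7A11, still had 253 to 1707 reads per library. The share of reads on mitochondrially encoded genes was 1.92% to 2.05% in the controls, 1.76% to 2.17% with ibrutinib, 1.27% to 1.75% with ironomycin and 0.883% to 1.89% with both drugs. The summed level of 10 B-cell markers was 2391 to 6165 normalized counts (CPM, scaled to library size) in the controls and 2327 to 6331 CPM with both drugs. These ranges span the lines and hide changes within a line: the JEKO1 sum ran from 3807 to 5739 CPM. With both drugs 3 of the 10 were lower and 1 higher than control at an adjusted p under 0.05 (edgeR), where 28.2% of all genes differed. JVM2 lacked the MCL markers CD5 (at most 2 reads) and SOX11 (0 reads) and had 216 to 322 CPM of CCND1, where JEKO1 had 2182 to 3513 and MAVER1 4252 to 4828. The summed level of 13 markers of other cell types was 6.13 to 33.9 CPM in the controls, 6.63 to 40.1 with ironomycin, 5.58 to 35.4 with ibrutinib and 6.22 to 56.2 with both drugs, and 8 of the 13 passed the filter on low counts. The erythroid HBB and the endothelial PECAM1 had 0 reads in every library, and the endothelial VWF at most 30. The highest counts of the list were those of COL1A1 (1247 reads), EPCAM (537) and KRT18 (323), each in MAVER1.

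Compared per length (RPKM, normalized reads per kilobase of exon), the large neutral amino acid light chain was the most abundant of the 10 in most libraries and the cystine light chain the least abundant in all 12. SLC7A5 had 65.05 RPKM at its lowest, 150 at the median and 242 at its highest library. SLC1A5 followed with 75.2, 97.9 and 113 RPKM, and SLC3A2 with 25.3, 52.3 and 129. SLC7A5 ranked 1 to 2 of 10, SLC1A5 1 to 3 and SLC3A2 2 to 6, so their ranges overlapped. SLC7A1 (median 34.2 RPKM), SLC38A1 (26.8), SLC38A2 (25.4) and SLC1A4 (24.7) formed a middle group whose ranks changed places between libraries. SLC43A1 lay at 7.48 to 32.4 RPKM, SLC7A6 at 3.57 to 8.65 and SLC7A11 at 0.659 to 4.67, and the last 2 kept ranks 9 and 10 in every library. SLC7A11 thus made up 0.415% to 2.35% of the summed RPKM of the light chains SLC7A5, SLC7A6 and SLC7A11, although the exon lengths used count all annotated transcripts of a gene.

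**Figure D1:**
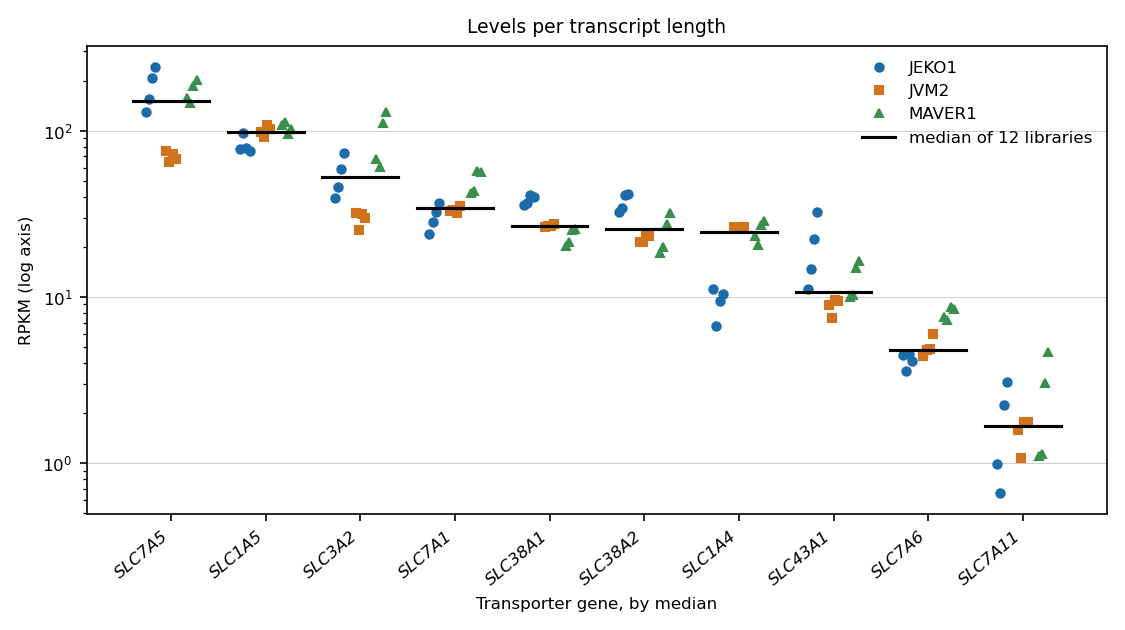
Level of each transporter per length (RPKM, log axis) in the 12 libraries, with 1 marker shape per cell line and a black line at the median of all libraries. SLC7A5 (median 150 RPKM) and SLC1A5 (97.9) lie at the top, SLC7A6 (4.81) and SLC7A11 (1.67) at the bottom.

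Apart from treatment, the 3 lines differed in most transporters. The 4 libraries of a line are the same line under 4 treatments and not independent replicates. The tests of level therefore do not measure the spread between cultures of a line. Averaged over treatments (4 libraries per line), 8 members were called different between JEKO1 and JVM2 by edgeR's quasi-likelihood test (adjusted p under 0.05), where 78.3% of all 18674 genes tested were called. Between JEKO1 and MAVER1 8 were called (66.4% of all genes) and between MAVER1 and JVM2 6 (71.2%), so the members stood near the background of genes that differ between lines. SLC3A2 was ordered MAVER1, JEKO1, JVM2, with MAVER1 1.55 log2 units above JVM2 and JEKO1 0.82 above JVM2. SLC7A5 was 1.35 higher in JEKO1 and 1.28 higher in MAVER1 than in JVM2, while JEKO1 and MAVER1 differed by 0.07 and were not called. SLC1A4 was lower in JEKO1 than in JVM2 (log2 difference -1.50) and MAVER1 (-1.41). SLC38A1 was ordered JEKO1, JVM2, MAVER1, with JEKO1 0.51 above JVM2 and MAVER1 0.23 below it (log2 difference -0.23). SLC7A11 was called in none of these 3 comparisons, and the difference of JEKO1 from MAVER1 was -0.51 (adjusted p = 0.0987).

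Promoter sequences are shown because several members moved together with ironomycin and ATF4 and NRF2 are known regulators of such genes. RefSeq promoter windows (GRCh38.p14, 250 bases before to 50 after a start site) were given for 9 of the 10 members, in 16 windows, and SLC7A11 was not among them. Windows were searched on both strands for the core of the C/EBP-ATF response element (CARE) bound by ATF4, TGATGNAA, and the core of the antioxidant response element (ARE) bound by NRF2, TGACNNNGC. The CARE core was in 3.62% of all 35116 promoter windows and in windows of 5 members, and the ARE core in 13.3% of all windows and in windows of 5 members. Members with 2 or 3 start sites had as many windows to match. SLC3A2 and SLC7A1 were the 2 members with both cores in 1 window. SLC7A5 and SLC7A6 held the ARE core, SLC38A1 and SLC1A4 the CARE core, and SLC1A5 each core in a different window. SLC38A2 and SLC43A1 had no match in their windows. The stretches of 30 bases below are shown 5′ to 3′ on the strand of the gene, with the core in capitals, as the complement where it lies on the opposite strand.
SLC3A2, CARE core on the opposite strand, chr11:62881719-62881748 (+): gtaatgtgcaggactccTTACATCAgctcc
SLC3A2, ARE core, chr11:62881652-62881681 (+): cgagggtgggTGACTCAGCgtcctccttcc
SLC7A1, CARE core, chr13:29595663-29595692 (-): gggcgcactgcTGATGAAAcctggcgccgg
SLC7A1, ARE core, chr13:29595754-29595783 (-): tgcccggcggTGACGCGGCcgagcgggccg
SLC7A5, ARE core, chr16:87869490-87869519 (-): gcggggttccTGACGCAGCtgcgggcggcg
SLC38A1, CARE core, chr12:46266502-46266531 (-): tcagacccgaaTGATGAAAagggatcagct
SLC1A4, CARE core on the opposite strand, chr2:64989381-64989410 (+): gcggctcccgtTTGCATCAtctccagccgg
A match is a run of letters, and binding was not measured.

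The 250 bases before the start are given for the 2 members with both cores, since the ARE core of each lies there and the CARE core lies past the start. The SLC3A2 window is 1 of 3 and was chosen because it held the matches.
SLC3A2, chr11:62881449-62881698 (+): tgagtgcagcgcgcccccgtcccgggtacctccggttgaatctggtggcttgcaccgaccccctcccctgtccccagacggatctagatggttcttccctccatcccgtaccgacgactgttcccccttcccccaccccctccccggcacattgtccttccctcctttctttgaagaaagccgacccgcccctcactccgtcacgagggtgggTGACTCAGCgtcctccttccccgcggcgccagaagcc
SLC7A1, chr13:29595689-29595938 (-): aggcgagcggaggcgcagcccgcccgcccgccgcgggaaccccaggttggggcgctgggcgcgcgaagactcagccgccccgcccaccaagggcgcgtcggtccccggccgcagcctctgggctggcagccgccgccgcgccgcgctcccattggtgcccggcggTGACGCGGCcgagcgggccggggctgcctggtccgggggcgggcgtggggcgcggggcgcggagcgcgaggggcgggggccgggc
In both runs the capitals mark the ARE core.

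The cystine/glutamate light chain SLC7A11 showed the widest response of the members. In JEKO1 it had 9.55 CPM in the control, 6.36 with ibrutinib, 21.4 with ironomycin and 29.5 with the combination (CPM here and below are normalized by the trimmed mean of M-values, TMM). In MAVER1 the values in that order were 10.7, 10.9, 29.2 and 45.0 CPM. In JVM2 they were 15.3, 10.3, 17.1 and 17.0 CPM. Both ironomycin-containing libraries thus stood above both others within every line, by a wide gap in JEKO1 and MAVER1 and a narrow one in JVM2. Across lines the lowest library with ironomycin alone (17.1 CPM) and the highest control (15.3 CPM) were both from JVM2, only 0.16 log2 units apart.

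The heavy chain SLC3A2, which SLC7A11, SLC7A5 and SLC7A6 share, followed ironomycin in the same pair of lines. Its CPM in the order control, ibrutinib, ironomycin and both drugs were 204, 237, 304 and 378 in JEKO1. In MAVER1 they were 348, 312, 576 and 667. In JVM2 they were 165, 131, 163 and 154, so that the control was the highest of the 4 JVM2 libraries. In MAVER1 the summed RPKM of the 3 light chains lagged behind that of SLC3A2. The sum over SLC3A2 was 2.46 in the MAVER1 control, 1.77 with ironomycin and 1.67 with the combination. In JEKO1 that ratio was 3.43, 3.67 and 3.42, and in JVM2 2.54, 2.52 and 2.51. In MAVER1 SLC7A5 made up 93.9% to 94.8% of the sum, which therefore mostly follows SLC7A5. SLC7A11 did not lag there: its log2 ratios against control were 1.45 (ironomycin) and 2.07 (combination), beside 0.73 and 0.94 for SLC3A2. SLC7A5 (0.25 and 0.37) and SLC7A6 (0.19 and 0.16) rose less than SLC3A2. The light chain SLC7A7 was not part of the sum. All these ratios rest on single libraries and were not tested.

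The leucine exchanger light chain SLC7A5 had 613 CPM in the JEKO1 control, 733 with ibrutinib, 990.3 with ironomycin and 1149.7 with the combination. In MAVER1 it had 743, 692, 881 and 959 CPM in that order. In JVM2 it had 357, 309, 345 and 318 CPM. JVM2 lay below every library of the other lines, and its highest value was the control. SLC7A6, the other light chain, ranged from 27.1 to 34.3 CPM in JEKO1, 33.3 to 45.1 in JVM2 and 54.7 to 65.6 in MAVER1. In each line the ironomycin library lay above the control and the combination above ibrutinib, while the place of ibrutinib beside the control changed between lines. SLC7A6 overlaps SLC7A6OS, a coding gene on the opposite strand with 356 to 699 reads per library, and the strand setting of the counting is not given in the sources used here, so its values are less certain. SLC7A5 has a pseudogene, SLC7A5P1, with 111 to 187 reads per library, few beside its own.

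SLC43A1, the large neutral amino acid uniporter, had 39.4 CPM in the JEKO1 control, 51.7 with ibrutinib, 78.5 with ironomycin and 114 with both drugs. In MAVER1 it had 35.02, 36.0, 52.7 and 58.4 CPM, and in JVM2 31.6, 26.4, 33.9 and 33.4. The ironomycin libraries were thus above the other libraries of their line in each of the 3 lines, narrowly so in JVM2. The arginine and lysine transporter SLC7A1 had 185, 218, 251 and 280.4 CPM in JEKO1 in the same order. In MAVER1 it had 326, 333, 441 and 431 CPM, and in JVM2 251, 256, 247 and 269.7. In JVM2 the ironomycin library was the lowest of the 4 for SLC7A1.

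The sodium-coupled SLC38A2, known for its induction when amino acids run short, had 213 CPM in the JEKO1 control, 225 with ibrutinib, 271 with ironomycin and 276 with the combination. In MAVER1 it had 120.4, 131, 181 and 210.1 CPM, and in JVM2 142, 140.4, 155 and 154. Its relative SLC38A1 moved less: JEKO1 had 358, 368, 412 and 401 CPM, MAVER1 203, 214, 252 and 256, and JVM2 264, 267, 269 and 277. Both were therefore lowest without ironomycin in all 3 lines, and the JVM2 values of SLC38A1 were close together. Of the small neutral amino acid exchangers, SLC1A4 ranged over 46.3 to 77.0 CPM in JEKO1, 180.4 to 184 in JVM2 and 142 to 199 in MAVER1, with ibrutinib the lowest library of every line, narrowly so in JVM2. SLC1A5 ranged over 251 to 324 CPM in JEKO1, 307 to 358 in JVM2 and 317 to 376 in MAVER1.

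**Figure D2:**
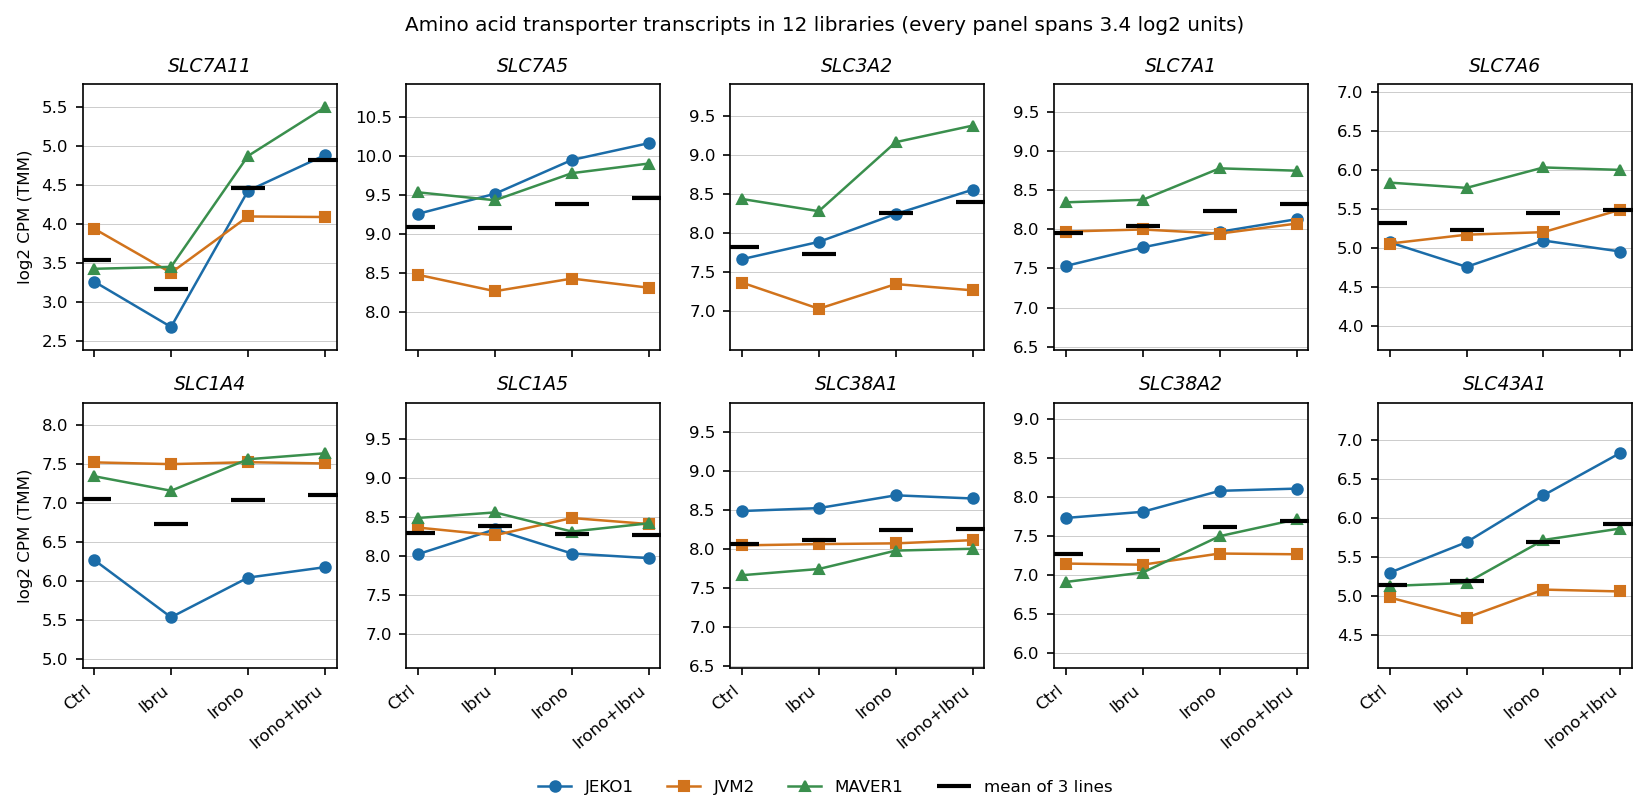
Level of the 10 transporters (log2 CPM, TMM-normalized) by treatment in JEKO1, JVM2 and MAVER1, 1 point per library, with a black dash at the mean of the 3 lines and every panel spanning the same number of log2 units. SLC7A11 climbs in JEKO1 and MAVER1 with ironomycin, from 9.55 to 21.4 CPM and from 10.7 to 29.2 CPM, and stays at 15.3 and 17.1 CPM in JVM2, while the SLC1A5 panel is nearly flat.

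Taken over the 3 lines, no transporter was called with ironomycin alone at these doses. The log2 fold change against control was 0.89 for SLC7A11 (SE 0.30, adjusted p = 0.123 by edgeR's quasi-likelihood test), 0.54 for SLC43A1 (SE 0.20, adjusted p = 0.152), 0.41 for SLC3A2 (SE 0.18, adjusted p = 0.208) and 0.35 for SLC38A2 (SE 0.12, adjusted p = 0.123). SLC7A5 and SLC7A1 had 0.28 each (adjusted p = 0.320 and 0.168), SLC38A1 0.18 (adjusted p = 0.222) and SLC7A6 0.12 (adjusted p = 0.539), and SLC1A4 and SLC1A5 stood at -0.01, values that turned to 0.061 and 0.056 when scaled by library totals alone. With edgeR 0 of 10 members were called and 6 had an unadjusted p under 0.05, beside 4198 of 18674 genes. DESeq2 called 2 members, SLC7A11 (0.88, adjusted p = 0.0250) and SLC38A2 (0.34, adjusted p = 0.0327), beside 2308 of 18674 genes. Of all genes tested edgeR called 0.584%, and the median log2 fold change was 0.28 over the members and 0.03 over all genes. The call depended on JVM2: without that line 4 members were called, SLC7A11 at 1.28 (adjusted p = 0.0096), SLC43A1 at 0.76 (adjusted p = 0.0387), SLC3A2 at 0.63 (adjusted p = 0.0347) and SLC7A1 at 0.41 (adjusted p = 0.0444). Calls over all genes rose as well without JVM2, from 109 of 18674 to 1636 of 17985, so this was not particular to the members.

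Ibrutinib alone left the transporters without a common direction. With edgeR 0 of 10 were called (0.0% of all genes), 1 had an unadjusted p under 0.05 and DESeq2 called 0. That member was SLC1A4, with a log2 fold change of -0.31 (SE 0.13, unadjusted p = 0.0389, adjusted p = 1.0), lower in 3 of 3 lines but by -0.74 in JEKO1, -0.02 in JVM2 and -0.19 in MAVER1. SLC7A11 had -0.40 (SE 0.30), with ratios in single lines that stood at -0.58 (JEKO1), -0.57 (JVM2) and 0.02 (MAVER1) on the log2 scale. The other 8 members lay between -0.10 and 0.10, each with an SE of 0.08 to 0.20.

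With both drugs against control, 5 transporters rose and none was called lower. SLC7A11 rose by a log2 fold change of 1.30 (SE 0.30, adjusted p = 0.0112 by edgeR's quasi-likelihood test), a 2.46-fold increase, and was higher in 3 of 3 lines the ratios on the log2 scale being 1.62 (JEKO1), 0.15 (JVM2) and 2.07 (MAVER1). SLC43A1 rose by 0.79 (SE 0.20, adjusted p = 0.0163), SLC3A2 by 0.58 (SE 0.18, adjusted p = 0.0375), SLC38A2 by 0.43 (SE 0.12, adjusted p = 0.0204) and SLC7A1 by 0.37 (SE 0.11, adjusted p = 0.0308). SLC43A1, SLC38A2 and SLC7A1 were higher in 3 of 3 lines and SLC3A2 in 2 of 3, with -0.10 in JVM2. SLC7A5 had 0.37 (SE 0.16, adjusted p = 0.106) with -0.17 in JVM2, SLC38A1 0.19 (adjusted p = 0.107), SLC7A6 0.16 (adjusted p = 0.281), SLC1A4 0.06 (adjusted p = 0.767) and SLC1A5 -0.02 (adjusted p = 0.891), which turned to 0.098 when scaled by library totals alone. The 5 of 10 members called stand beside 28.2% of all genes called, and the 5 called higher beside 14.2% called higher, with a median log2 fold change of 0.37 over the members and 0.05 over all genes. Without JEKO1 or without MAVER1 0 members were called (SLC7A11 at 1.12 with adjusted p = 0.135, and at 0.91 with adjusted p = 0.166), as all-gene calls fell from 5268 to 37 and 22, whereas without JVM2 SLC7A11 stood at 1.81 (adjusted p = 0.00099).

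Adding ibrutinib to ironomycin gave no called change in any transporter. With edgeR 0 of 10 were called against ironomycin alone (0.0% of all genes), 0 had an unadjusted p under 0.05 and DESeq2 called 0. The largest difference was that of SLC7A11 at 0.41 (SE 0.29, adjusted p = 0.602), followed by SLC43A1 at 0.25 (SE 0.20), so that sizes of this order were not separable from the spread between lines. Whether the combination departed from additivity of the single drugs was also tested, and the departure was called for 0 of 10 members by edgeR and by DESeq2 (0.0% of all genes, 0 members with an unadjusted p under 0.05), with 0.81 for SLC7A11 (SE 0.42). Against ibrutinib alone, 4 members rose with both drugs, where 23.3% of all genes were called and 11.8% called higher. That count was 0 without JEKO1, 0 without MAVER1, 7 without JVM2, 9 with library totals, 1 with the 6 libraries alone and 0 without the cell line term. All-gene calls went from 4359 to 1, 6, 5192, 4378, 306 and 0 in that order. The 4 members were SLC7A11 at 1.70 (SE 0.30, adjusted p = 0.0066), SLC43A1 at 0.76 (SE 0.20, adjusted p = 0.0217), SLC3A2 at 0.68 (SE 0.18, adjusted p = 0.0237) and SLC38A2 at 0.38 (SE 0.12, adjusted p = 0.0399). These comparisons share libraries with the ones above and are not separate evidence.

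Averaging the ironomycin effect over the presence of ibrutinib sets 6 libraries against 6 and gave smaller errors than the treatment comparisons above. Each side holds every line with and without ibrutinib, so its 6 libraries are not independent replicates. The model had no term for an ironomycin effect that differs between lines, as it did for some members (tested below). The errors and p-values here may therefore be too small. Of the members 6 rose: SLC7A11 at 1.30 (SE 0.21, adjusted p = 0.0021 by edgeR's quasi-likelihood test), SLC43A1 at 0.65 (SE 0.14, adjusted p = 0.0066), SLC3A2 at 0.55 (SE 0.13, adjusted p = 0.0092), SLC38A2 at 0.36 (SE 0.08, adjusted p = 0.0079), SLC7A5 at 0.34 (SE 0.11, adjusted p = 0.0377) and SLC7A1 at 0.28 (SE 0.08, adjusted p = 0.0202). In the same comparison 33.4% of all genes were called and 17.1% called higher. The 6 of 10 higher stands above that share, but the members were chosen with earlier results of these data known. SLC38A1 had 0.16 (adjusted p = 0.0508), SLC7A6 0.19 (adjusted p = 0.0789), SLC1A4 0.18 (adjusted p = 0.158) and SLC1A5 -0.07 (SE 0.08, adjusted p = 0.510), which turned to 0.015 when scaled by library totals alone. As with the combination, leaving out JEKO1 or MAVER1 gave 0 called members, as all-gene calls fell from 6230 to 1750 and 509. SLC7A11 then stood at 1.10 (adjusted p = 0.0519) without JEKO1 and 1.06 (adjusted p = 0.0615) without MAVER1.

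**Figure D3:**
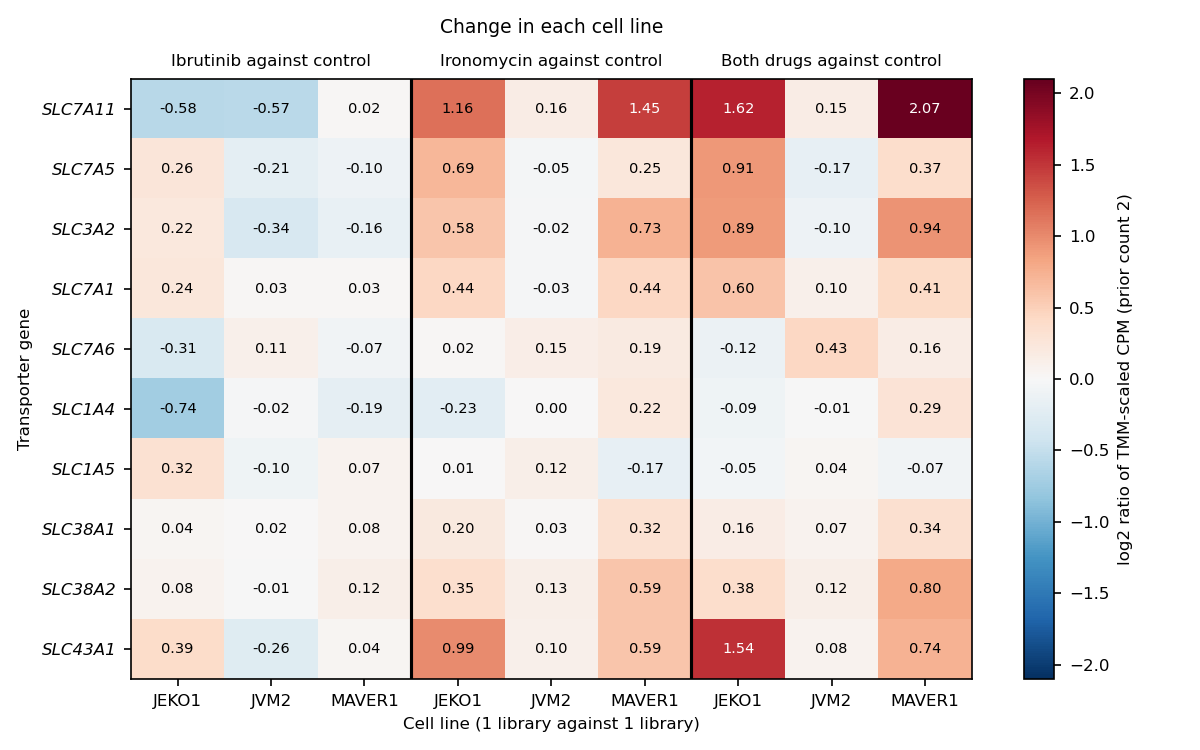
Heat map of log2 ratios within single lines for the 10 transporters, in 3 comparisons against control (ibrutinib, ironomycin, both drugs) by 3 lines, 1 library against 1, with red for higher and blue for lower. The JVM2 column for ironomycin is pale, with ratios of -0.05 to 0.16, its ibrutinib column reaches -0.57 for SLC7A11 and its column for both drugs 0.43 for SLC7A6, while SLC7A11 reaches 1.62 in JEKO1 and 2.07 in MAVER1 with both drugs.

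Within lines, the ironomycin effect was fitted from the 2 libraries with the drug against the 2 without, with ibrutinib as a term. The 2 libraries on each side differ in ibrutinib and are not replicate cultures, and the spread was estimated from all 12 libraries together. The p-values therefore do not measure the spread between cultures of a line. In MAVER1 7 members rose, where 32.3% of all genes were called and 16.6% called higher. SLC7A11 rose by 1.78 on the log2 scale (SE 0.25, adjusted p = 0.00040 by edgeR's quasi-likelihood test), SLC3A2 by 0.91 (SE 0.14, adjusted p = 0.00063), SLC38A2 and SLC43A1 by 0.64 each (adjusted p = 0.00025 and 0.0074), SLC7A1 by 0.41 (adjusted p = 0.0040), SLC7A5 by 0.36 (adjusted p = 0.0376) and SLC38A1 by 0.29 (adjusted p = 0.0120). In JEKO1 6 members rose, where 33.3% of all genes were called and 17.3% called higher, and all 6 were among the 7 of MAVER1. There SLC7A11 rose by 1.67 (SE 0.25, adjusted p = 0.00086), SLC43A1 by 1.08 (SE 0.15, adjusted p = 0.00056), SLC7A5 by 0.67 (SE 0.12, adjusted p = 0.0019), SLC3A2 by 0.63 (SE 0.14, adjusted p = 0.0057), SLC7A1 by 0.40 (adjusted p = 0.0051) and SLC38A2 by 0.32 (adjusted p = 0.0108). Of these 6, SLC3A2 and SLC7A1 held both cores in the promoter windows printed above and SLC7A5 the ARE core, while SLC38A2 and SLC43A1 had no match. The 4 members not called in JEKO1, SLC7A6, SLC1A4, SLC1A5 and SLC38A1, each held a core as well. SLC7A11 had no window and sites outside the windows were not searched. A part of the cores in these changes was not tested. In JVM2 0 of 10 members were called by edgeR or by DESeq2 and 0 had an unadjusted p under 0.05, beside 2.27% of all genes called. Its largest value was that of SLC7A11 at 0.41 (SE 0.25, adjusted p = 0.408), and the other 9 lay between -0.01 and 0.24. Of the 10 B-cell markers, 7 fell and 1 rose in JEKO1 with ironomycin, 5 fell and 1 rose in MAVER1, and 1 fell in JVM2, where 2999, 2934 and 162 of the 18674 genes fell in these lines. In addition, the mitochondrial share reached its lowest values in these lines, 0.883% and 1.21% against 1.75% in JVM2. Their part in the transporter values was not tested.

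**Figure D4:**
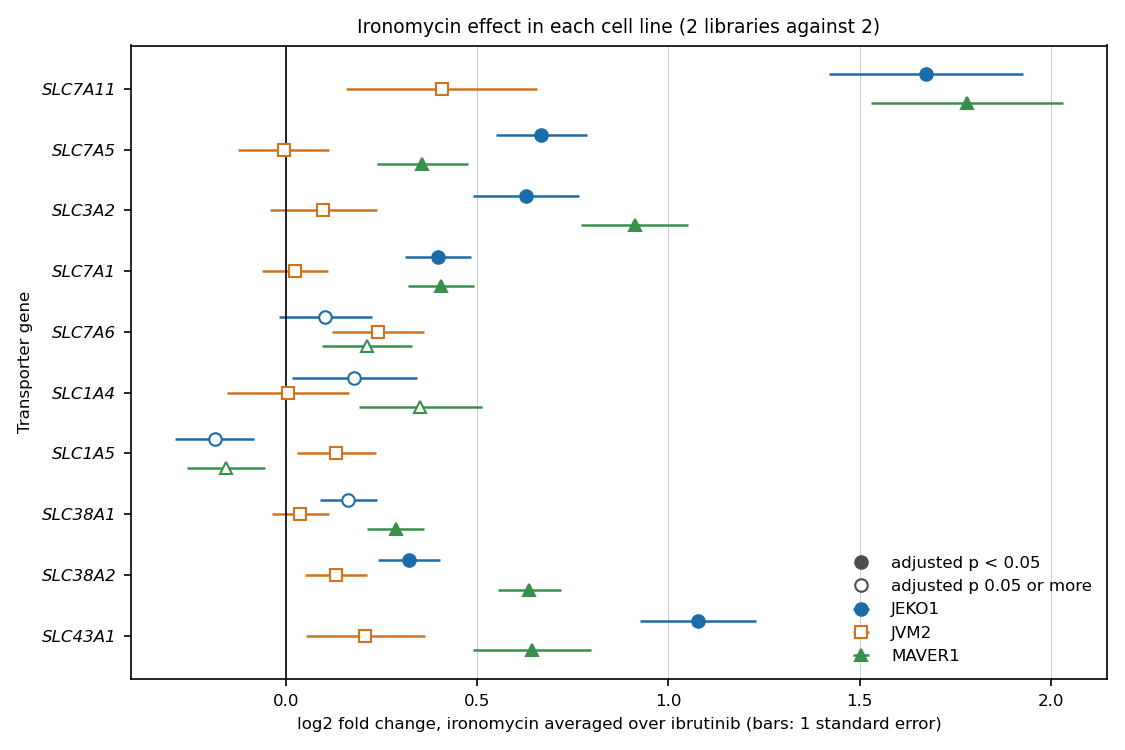
Ironomycin effect on each transporter within each line (log2 fold change, 2 libraries against 2, bars of 1 SE from edgeR), with filled markers for an adjusted p under 0.05. JEKO1 (6 filled) and MAVER1 (7 filled) lie above 0 for SLC7A11, SLC3A2, SLC43A1, SLC7A5, SLC7A1 and SLC38A2, and no JVM2 marker is filled.

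The difference between lines was tested directly. Over the 3 lines the ironomycin effect differed for SLC38A2 (adjusted p = 0.0450 by edgeR's quasi-likelihood test on 2 coefficients) and SLC7A11 (adjusted p = 0.0482), 2 of 10 members beside 7.97% of all genes. SLC3A2 (adjusted p = 0.0540), SLC43A1 (adjusted p = 0.0630), SLC7A5 (adjusted p = 0.0636) and SLC7A1 (adjusted p = 0.0944) were near the threshold. DESeq2 called 6 members, and its share over all genes is not given here. MAVER1 exceeded JVM2 in the effect on SLC7A11 by 1.37 (SE 0.35, adjusted p = 0.0404), on SLC3A2 by 0.81 (SE 0.20, adjusted p = 0.0327) and on SLC38A2 by 0.51 (SE 0.12, adjusted p = 0.0271), 3 of 10 members beside 6.44% of all genes called and 3.72% called higher. JEKO1 against JVM2, at a lower ironomycin dose in JEKO1, gave 0 called members by edgeR (3.32% of all genes called) and 3 by DESeq2. Of the members 5 had an unadjusted p under 0.05, beside 3673 of 18674 genes. The values of JEKO1 against JVM2 were 1.27 for SLC7A11 (SE 0.35, adjusted p = 0.0758), 0.87 for SLC43A1 (adjusted p = 0.0515) and 0.67 for SLC7A5 (adjusted p = 0.0522). JEKO1 against MAVER1 gave 0 called members by edgeR and DESeq2, with 1 at an unadjusted p under 0.05 (2.34% of all genes called). The adjusted p of SLC7A11 over the 3 lines ran from 0.0042 with DESeq2 to 0.921 without JVM2, that of SLC38A2 from 0.0044 with DESeq2 to 0.490 without MAVER1. The ibrutinib effect differed between lines for 0 of 10 members by edgeR and DESeq2 (0.0107% of all genes), with 1 at an unadjusted p under 0.05.

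Genes of the ATF4 response, the stress program that several transporters belong to, rose in number with both drugs. Of 34 genes written in the list 32 were tested, and with both drugs against control 18 rose and 0 fell, beside 14.2% of all genes called higher, with a median log2 fold change of 0.65. The lowest adjusted p-values were those of ALDH1L2, a mitochondrial folate enzyme (2.62, adjusted p = 0.0039), DDIT3, the transcription factor CHOP (1.82, adjusted p = 0.0046), PPP1R15A, which recruits the phosphatase of eIF2α (1.52, adjusted p = 0.0050), and SESN2, a leucine sensor of mTORC1 (1.41, adjusted p = 0.0061). The level of ALDH1L2 was uneven, from 0.10 to 191 CPM over the libraries, with a low median of 0.69 in the controls and 1.54 with both drugs. ATF4 itself rose by 0.48 (adjusted p = 0.0218), TRIB3, a pseudokinase induced by ATF4 and CHOP, by 1.96 (adjusted p = 0.0238), and CHAC1, which degrades glutathione, by 1.61 (adjusted p = 0.0275). ASNS, asparagine synthetase and a textbook ATF4 target, had 0.45 (SE 0.22, adjusted p = 0.147). With ironomycin alone edgeR called 0 of the 32 over the 3 lines and DESeq2 called 12, beside 109 and 2308 of all 18674 genes. Of the 32, 21 had an unadjusted p under 0.05 by edgeR, beside 4198 of all genes. Within lines the drug raised 19 of 32 in JEKO1, 1 in JVM2 (GDF15, 1.89, adjusted p = 0.034) and 19 in MAVER1, beside 17.3%, 2.27% (either direction) and 16.6% of all genes. In JVM2, where no transporter was called, 31 of the 32 still had a positive value. There 15 had an unadjusted p under 0.05, beside 3556 of all 18674 genes. The median was 0.40 in JVM2, against 0.67 in JEKO1 and 0.58 in MAVER1. The size of the effect differed between lines for both TRIB3 and CHAC1: TRIB3 had 3.22 in JEKO1, 0.41 in JVM2 and 1.47 in MAVER1 (by-line adjusted p = 0.00216), and CHAC1 had 0.91, 0.63 and 2.65 (by-line adjusted p = 0.0246).

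The other amino acid transporters of the plasma membrane did not follow a common direction. Of 38 genes in the list 14 were tested, and with both drugs 2 rose and 2 fell, with a median of -0.08. These counts are near the share of all genes, of which 28.2% were called and 14.2% called higher. SLC6A9, the glycine transporter GLYT1, rose by 2.21 (SE 0.45, adjusted p = 0.0069), a larger value than that of any of the 10 members, without a test of the difference, with an ironomycin effect of 2.79 in JEKO1, 0.85 in JVM2 (adjusted p = 0.181) and 1.94 in MAVER1. SLC38A10 rose by 0.71 (adjusted p = 0.0099), while the glutamine transporter SLC38A5 fell by 0.56 (adjusted p = 0.0092) and the light chain SLC7A7, a relative of SLC7A6, fell by 0.62 (adjusted p = 0.0164). SLC43A2, the nearest relative of SLC43A1, went the other way in MAVER1 with an ironomycin effect of -1.72 (adjusted p = 0.000103), against -0.42 in JEKO1 (adjusted p = 0.0868) and -0.31 in JVM2 (adjusted p = 0.481), and the difference between lines passed the test (adjusted p = 0.0145). With ironomycin alone edgeR called 0 of the 14 and DESeq2 called 1, beside 109 and 2308 of all 18674 genes. Of the 14, 4 had an unadjusted p under 0.05 by edgeR, beside 4198 of all genes.

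Of the transporters of the lysosome, the organelle in which ironomycin holds iron, about the background share was called. With both drugs 3 of 9 tested rose and 0 fell, beside 28.2% of all genes called and 14.2% called higher, with a median of 0.10: CTNS, the lysosomal cystine exporter (0.83, adjusted p = 0.0065), SLC38A7, an exporter of glutamine (0.44, adjusted p = 0.0128), and SLC66A1, an exporter of cationic amino acids (0.44, adjusted p = 0.0304). SLC38A9, the lysosomal arginine sensor, had 0.11 (adjusted p = 0.475). The ironomycin effect on CTNS was 0.84 in JEKO1 (adjusted p = 0.000559), 0.20 in JVM2 (adjusted p = 0.472) and 0.82 in MAVER1 (adjusted p = 0.000537). Of 12 mitochondrial carriers tested, 2 rose with both drugs, SLC25A29 (0.68, adjusted p = 0.0094) and SFXN3 (0.48, adjusted p = 0.0490), and 2 fell, the serine carrier SFXN1 (-0.57, adjusted p = 0.0040) and the glutathione carrier SLC25A39 (-0.54, adjusted p = 0.0150).

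Downstream of cystine uptake, the glutathione genes went in both directions. With both drugs 3 of 19 tested rose, near the 14.2% of all genes called higher, and 5 fell, with a median of -0.0032. OPLAH, the enzyme that opens oxoproline, rose by 0.83 (adjusted p = 0.0047), while CHAC2 fell by 0.87 (adjusted p = 0.0043), glutathione synthetase GSS by 0.55 (adjusted p = 0.0092) and glutathione reductase GSR by 0.50 (adjusted p = 0.0038). The subunits of the rate-limiting ligase had 0.07 (GCLC, adjusted p = 0.762) and 0.01 (GCLM, adjusted p = 0.949), and GPX4, which reduces lipid peroxides, 0.02 (SE 0.12, adjusted p = 0.937). GCLC was called higher with ironomycin in JEKO1 (0.28, adjusted p = 0.0459) and MAVER1 (0.30, adjusted p = 0.0345) and stood at -0.29 in JVM2 (adjusted p = 0.145), a difference between lines that passed the test (adjusted p = 0.0319). Over the 3 lines SLC7A11 was called with both drugs while neither GCLC nor GCLM was.

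Of 30 tested genes of amino acid sensing by mTORC1, 9 rose and 5 fell with both drugs, with a median of 0.035, where 2655 of all 18674 genes rose and 2613 fell. Those with the lowest adjusted p were FNIP2, a partner of folliculin (1.18, adjusted p = 0.0033), SESN3, a sestrin (0.73, adjusted p = 0.0042), SESN2 (given above) and TSC1, an inhibitor of mTORC1 (0.86, adjusted p = 0.0063). Of 15 tested genes of glutamine and branched-chain amino acid metabolism, 2 rose and 5 fell, with a median of -0.08. ASS1, argininosuccinate synthase of arginine synthesis, rose by 2.55 (SE 0.54, adjusted p = 0.0080) and the glutaminase GLS2 by 0.84 (adjusted p = 0.0116), while the aspartate aminotransferase GOT2 fell by 0.62 (adjusted p = 0.0080) and the kinase BCKDK by 0.27 (adjusted p = 0.0174). With ironomycin alone, OPLAH (0.82, adjusted p = 0.047) and FNIP2 (0.99, adjusted p = 0.042) were the genes of the 7 lists that were called. The lists were written with earlier results of these data known, and a count over a list is a description.

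**Figure D5:**
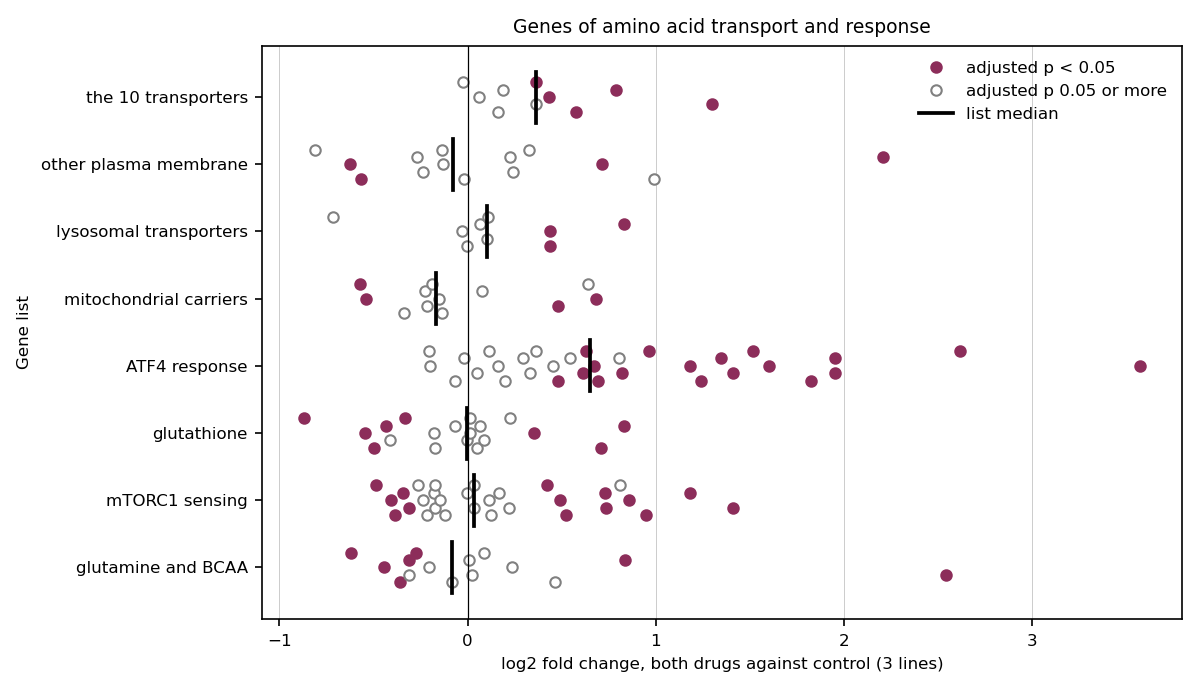
Log2 fold change of both drugs against control for every tested gene of the transporters and the 7 lists, filled where the adjusted p was under 0.05, with a black bar at the median of each list. The ATF4 response has the highest median (0.65), followed by the 10 transporters (0.37), while the medians of the other lists lie between -0.17 and 0.10.

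The genes whose pattern was most like that of SLC7A11 and SLC3A2 were not members. Likeness was the root mean square difference of log2 CPM over the 12 libraries, each gene centred on its mean in each line, over 11212 genes whose mean log2 CPM was 1 or more. Nearest to SLC7A11 were ARMCX3 (0.153), METRNL (0.157) and ARFGAP3 (0.160), where SLC7A11 itself varied by 0.747, and the nearest members were SLC43A1 at rank 357 and SLC3A2 at rank 398. Nearest to SLC3A2 were SLC10A7 (0.0652), ZBTB26 (0.0825) and DNASE1L1 (0.0900), where SLC3A2 varied by 0.342, with SLC38A2 at rank 253 and SLC7A5 at rank 321. With both drugs against control ARMCX3 rose by 1.36 (adjusted p = 0.0047) and SLC10A7 by 0.57 (adjusted p = 0.0270), next to 1.30 for SLC7A11 and 0.58 for SLC3A2. These genes were picked for their likeness over the same 12 libraries, so the close values follow from the choice and are not a separate result. Likeness of this kind depends on the size of a change as well as its direction, so small members stand far from SLC7A11.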

How the data were processed

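RNA-seq counts of 12 libraries (3 cell lines, 4 treatments, 48 h) were used. The authors deposited raw read counts per Ensembl gene, with no normalization, for 63677 genes, of which 39699 were given a symbol. Polyadenylated RNA was sequenced as stranded paired-end libraries. The submitters' processing notes name STAR, DESeq2 and GRCh37, with no versions of the tools and no roles, and the counting tool and its strand setting are not given in the sources used here. No column was left unused (0), and 0 pairs of libraries were identical.

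Counts of all 12 libraries entered 1 quasi-likelihood model (edgeR 4.0.16, R 4.3.3, TMM normalization, F-test) of treatment and cell line. Genes were kept by filterByExpr (minimum count 10, minimum total 15), which left 18674 genes, all 10 members included, and Benjamini-Hochberg adjustment ran over all of them. A gene was called at an adjusted p under 0.05 with no minimum fold change. The SE of a log2 fold change is its size over the square root of F. Models with 1 ironomycin or ibrutinib coefficient per line gave the effects within lines and their differences. Log2 ratios of single lines used a prior count of 2. RPKM used the union of exons in GENCODE 29.

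Same-numbered libraries share a cell line, which pairs them: once treatment means were subtracted, libraries of a line correlated at 0.926 to 0.976 (18 pairs) and libraries of different lines at -0.705 to -0.127 (48 pairs). The members and the gene lists were chosen with earlier results of these data known. All 10 members are named in the text. From each list up to 4 called genes with the lowest adjusted p are named, with the role genes ATF4, DDIT3, TRIB3, CHAC1, ASNS, SESN2, GCLC, GCLM, GPX4 and SLC38A9 and the 3 genes nearest to SLC7A11 and to SLC3A2, while SLC43A2 and GDF15 were named after their values were seen. The tests were checked on simulated counts. Alternatives were DESeq2 1.42.0, other scalings, filters and fold minimums, no cell line term, fewer libraries and leaving out each line. limma 3.58.1 was loaded with edgeR. Tables and plots were made in Python 3.11.15 with pandas 2.3.3 and matplotlib 3.10.9. At a median of 38212833 reads per library, precision is limited by having 3 lines per treatment.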

Additional observations from a re-analysis of the deposited data

Results flagged for a closer look

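Results are listed here because an effect differed between cell lines by a test of the difference itself. The ironomycin effect over the 3 lines differed for SLC7A11 (adjusted p = 0.0482 by edgeR's quasi-likelihood test) and SLC38A2 (adjusted p = 0.0450). Between MAVER1 and JVM2 it differed for SLC7A11 (adjusted p = 0.0404, larger in MAVER1 by 1.37 log2 units), SLC3A2 (adjusted p = 0.0327, by 0.81) and SLC38A2 (adjusted p = 0.0271, by 0.51). Each difference sets 4 libraries of a line against 4 of another, at 250 nM ironomycin in both but at different ibrutinib doses, and line and serum cannot be told apart. All 5 tests lie close to the threshold. For SLC7A11 the test over the 3 lines gave an adjusted p of 0.0496 with RLE size factors, 0.0533 with library totals and 0.0585 with the CPM filter, and 0.0131, 0.921 and 0.0975 without JEKO1, JVM2 and MAVER1.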

How the results depend on the processing

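Counts of members called depended on the settings as follows. With ironomycin against control (0 called) DESeq2 called 2, beside 2308 of all 18674 genes, and leaving out a line gave 0 to 4. With both drugs against control (5) a minimum of 1.5 times left 2 and of 2 times 1, and leaving out a line gave 0 to 6. The 6 libraries compared alone gave 0 members, where only 5 of all 16136 genes tested were called. Against ibrutinib (4) a minimum of 2 times left 1, library totals gave 9, the 6 libraries alone 1, and leaving out a line 0 to 7. For the averaged ironomycin effect (6) the fold minimums left 2 and 1, and leaving out a line gave 0 to 7. Without the cell line term (no block for the paired libraries) 0 members and 0 of all 18674 genes were called in each of the last 3 comparisons. The adjusted p of SLC7A11 was then 0.855 with both drugs and 0.400 averaged. Between the levels of JEKO1 and JVM2 (8) the fold minimums left 5 and 3, between MAVER1 and JVM2 (6) 3 and 2, and between JEKO1 and MAVER1 (8) the larger left 1. For the ironomycin effect by line (2) RLE size factors, the CPM filter and either fold minimum gave 1, DESeq2 6, and leaving out a line 0 to 4. Within JEKO1 (6) a minimum of 2 times left 2, and within MAVER1 (7) the minimums left 4 and 1. Of the counts under an alternative, 117 stayed within 1.5 times and 36 moved.

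Library totals moved the median of all genes with both drugs from 0.051 to 0.176. Directions turned only for members that were not called, with the following log2 values. For ironomycin SLC1A4 turned to 0.061 with library totals, 0.0019 with the CPM filter and 0.052 without the block and ran from -0.12 to 0.11 on leaving out a line, and SLC1A5 turned to 0.056 with library totals and ran from -0.11 to 0.066. For ibrutinib SLC7A5 turned to 0.018 without the block, and leaving out a line gave -0.16 to 0.066 for SLC7A5, -0.26 to 0.040 for SLC3A2, -0.19 to 0.023 for SLC7A6, -0.0081 to 0.19 for SLC1A5 and -0.12 to 0.20 for SLC43A1. For both drugs against control leaving out a line gave -0.012 to 0.30 for SLC7A6 and -0.060 to 0.14 for SLC1A4, and SLC1A5 turned to 0.098 with library totals and 0.00074 with the CPM filter. Against ironomycin leaving out a line gave -0.094 to 0.13 for SLC7A6, -0.069 to 0.014 for SLC1A5 and -0.017 to 0.032 for SLC38A1, SLC1A5 turned to 0.043 with library totals and 0.0033 with the CPM filter, and SLC38A1 to -0.0026 with RLE and -0.0027 with DESeq2. For the departure leaving out a line gave -0.077 to 0.018 for SLC7A1, -0.19 to 0.017 for SLC1A5 and -0.022 to 0.065 for SLC38A2, and SLC7A1 turned to 0.026 with library totals and 0.0035 with the CPM filter. Averaged, SLC1A5 turned to 0.015 with library totals. Within JVM2 SLC7A5 turned to 0.056 with library totals and 0.0027 with the CPM filter and ran from 0.00058 to 0.00079 on leaving out another line, and SLC1A4 turned to -0.0054 with RLE and with DESeq2. With library totals single-line ratios turned for SLC7A6 (0.074), SLC1A4 (0.098) and SLC1A5 (0.14) in JEKO1 with both drugs, SLC7A5 (0.0085) in JVM2 with ironomycin and SLC1A5 (0.020) in MAVER1 with both drugs. The causes were not tested.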
